A study of Mus musculus with 27 samples.

Results

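Outgrowth of the embryonic mouse limb bud was compared between the limb types, as the change from the early bud to E10.5 in forelimb buds (FLBs) against the same change in hindlimb buds (HLBs). The comparison used 11 of the 27 RNA-seq libraries, chosen by their labels: 3 of early FLBs, 3 of E10.5 FLBs, 3 of early HLBs and 2 of E10.5 HLBs. All came from Slc:ICR embryos with no transgene or treatment named. The methods name 3 embryos as the source of the dissected limb buds and no sorting of cells, and do not say whether a library holds 1 embryo or a pool. The labels give E10.0 for both early groups, whereas the legend of the study places the early FLBs at an earlier stage than the early HLBs. The interval to E10.5 then differs between the limb types, so limb type and length of interval cannot be told apart in any difference below. Replicate 2 of the E10.5 HLBs was left out because 3965 of the 11328 genes above 2 CPM in both other libraries of that group were listed at 0, on chromosomes 5, 6, 7, 8, 9 and X and part of chromosome 4. CPM are reads on a gene, scaled by the authors so that each library sums to 1000000.

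Limb buds grow out of the flank as mesenchyme under a jacket of ectoderm. The apical ridge of that ectoderm secretes FGFs, a zone at the posterior margin secretes SHH, and the genes at the 5′ end of the Hoxa and Hoxd clusters come on in succession as the bud lengthens. Forelimb buds appear before hindlimb buds, and Tbx5 marks the former whereas Tbx4 and Pitx1 mark the latter. LIN28A, an RNA-binding protein of early embryonic cells, blocks the maturation of let-7 microRNAs and is lost as tissues mature.

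The stage change of the FLBs differed most from that of the HLBs in 3 neighbouring Hoxd genes on the one side and Lin28a on the other, among genes with a group mean of at least 16 CPM. The 250 bases before a transcription start of each of these genes are shown to place them in the genome (RefSeq, GRCm38.p6), in the direction of transcription and in lower case, with matches to TATAAA on either strand in capitals. They lie at chr2:74667975-74668224 for Hoxd13, chr2:74674763-74675012 for Hoxd12 and chr2:74679308-74679557 for Hoxd11, all on the plus strand, and at chr4:134018817-134019066 on the minus strand for Lin28a. The last window lies inside the span of the gene, which reaches base 134019196 through other transcripts.
Hoxd13: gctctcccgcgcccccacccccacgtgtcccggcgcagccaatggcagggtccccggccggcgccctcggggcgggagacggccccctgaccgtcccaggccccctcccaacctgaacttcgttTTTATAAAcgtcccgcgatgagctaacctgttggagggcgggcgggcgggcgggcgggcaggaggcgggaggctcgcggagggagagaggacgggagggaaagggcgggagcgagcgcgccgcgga
Hoxd12: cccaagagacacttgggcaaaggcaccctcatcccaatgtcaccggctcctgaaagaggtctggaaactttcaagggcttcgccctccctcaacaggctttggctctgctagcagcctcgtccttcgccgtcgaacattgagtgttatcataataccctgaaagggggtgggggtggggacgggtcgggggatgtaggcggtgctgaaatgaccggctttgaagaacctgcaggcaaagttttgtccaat
Hoxd11: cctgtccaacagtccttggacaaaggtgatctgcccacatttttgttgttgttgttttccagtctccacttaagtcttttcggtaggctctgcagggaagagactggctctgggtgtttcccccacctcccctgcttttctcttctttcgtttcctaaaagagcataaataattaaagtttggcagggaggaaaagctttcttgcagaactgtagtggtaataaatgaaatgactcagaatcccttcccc
Lin28a: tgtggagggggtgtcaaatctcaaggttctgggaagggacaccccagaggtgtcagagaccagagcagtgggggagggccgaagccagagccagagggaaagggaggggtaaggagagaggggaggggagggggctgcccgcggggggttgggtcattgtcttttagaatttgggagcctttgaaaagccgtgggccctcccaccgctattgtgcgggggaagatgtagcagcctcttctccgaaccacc
The 3 Hoxd windows differ in base composition although the genes lie side by side. The share of G and C was 74.4% with 31 CpG pairs upstream of Hoxd13, 55.6% with 10 pairs upstream of Hoxd12 and 44.8% with 2 pairs upstream of Hoxd11, against medians of 52.4% and 6 pairs over 32851 such windows. Lin28a had 61.2% and 7 pairs. The capitals upstream of Hoxd13 hold 1 match of TATAAA on each strand, which overlap. A match of TATAAA on either strand was found in 12.4% of all windows. ACCACCC (3.92% of windows), CAATAAA (4.2%) and TGACAG (15.9%), the cores read by GLI, posterior HOX and MEIS factors, were also searched on both strands and had no match in these 4 windows.

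The depth of the libraries differed by stage and not by limb type. Reads on genes were not given and were estimated from the step between low CPM values. By this estimate early libraries held 19642253 to 22142338 reads on genes and E10.5 libraries 5543748 to 5908845. The value of 3 reads was then 0.135 to 0.153 CPM in the early buds and 0.508 to 0.541 CPM at E10.5. Stage and depth therefore cannot be told apart within a limb type. Pairs of replicates correlated with Pearson's r from 0.991 to 0.996 across genes, on the log2 scale, which describes the libraries only. The summed level of 10 limb bud mesenchyme genes, such as Prrx1, Twist1 and Hand2, went from 1774–1819 to 1984–2024 CPM in the FLBs and from 1696–1748 to 1953–2007 CPM in the HLBs. The sum does not stand for each gene. At an adjusted p under 0.05 (limma) 3 were higher and 5, Twist1 among them, lower in the E10.5 FLBs. In the HLBs 4 were higher and 4 lower. Over all genes tested 28.6% were higher and 35.2% lower in the FLBs, and 14.6% and 18.2% in the HLBs. Changes are given as log2 of the fold on scaled CPM plus 0.5 (limma), with the standard error and an adjusted p, and the interaction is the FLB change minus the HLB change. Where a group lies at or under the value of 3 reads, the fitted change depends on the 0.5 that was added and understates the fold.

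The labels of limb type fitted the markers in every library. Tbx5 had 95.8, 90.9 and 93.0 CPM in the early FLBs and 147, 157 and 163 CPM in the E10.5 FLBs, and stayed under 0.9 CPM in each HLB library. Tbx4 had 131, 127 and 129 CPM in the early HLBs, and the E10.5 HLBs had 162 and 164 CPM. In the FLBs Tbx4 had 0.842, 0.677 and 0.653 CPM early and 11.8, 11.4 and 11.3 CPM at E10.5. The marker of the hindlimb thus appeared at a low level in the older FLBs, without overlap between stages, and its interaction was 2.96 ± 0.13 (adjusted p = 2.3e-11). Pitx1, the upstream activator of Tbx4 in the hindlimb, went the other way in the FLBs. It had 6.19, 4.93 and 10.9 CPM in the early FLBs and 0.983, 0.634 and 0.831 CPM at E10.5, a change of −2.51 ± 0.24 (adjusted p = 1.4e-05). In the HLBs it lay between 212 and 237 CPM in all 5 libraries, with a change of 0.01 ± 0.27, and the interaction was −2.52 (adjusted p = 0.0013).

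More genes passed the test in the FLBs than in the HLBs. Of 13156 genes tested, 8402 (63.9%) passed an adjusted p of 0.05 between the FLB stages, 3767 (28.6%) higher and 4635 (35.2%) lower at E10.5. Between the HLB stages 4306 (32.7%) passed, 1918 (14.6%) higher and 2388 (18.2%) lower. The HLB comparison had 5 libraries against 6, so the counts do not compare the sizes of change. The median size of the change, regardless of sign and of the test, was 0.336 on the log2 scale in the FLBs and 0.193 in the HLBs. Over all genes tested the changes in the limb types correlated with Pearson's r = 0.768, a description across genes that share early and E10.5 library depth and composition. With CPM as deposited in place of scaled CPM the median FLB change moved from −0.04 to 0.14, and the split was 5601 higher against 2900 lower. In the HLBs it was 2479 against 1830.

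The interaction passed in 3218 genes (24.5%), and 4851 had an unadjusted p under 0.05. It was positive in 1303 (9.9%) and negative in 1915 (14.6%), but the split depends on the scaling and was 2044 against 831 with CPM as deposited and 1381 against 1682 with median-ratio factors. In each of the 11 fits that left out 1 library, 1630 of the 3218 genes passed again. Of the 3218 genes, 1362 passed in both limb types in the same direction, and in 1355 of these the change was larger in the FLBs and in 7 larger in the HLBs. A further 1645 passed in the FLBs but not in the HLBs, 112 in the HLBs but not in the FLBs, 56 in both in opposite directions, and 43 in neither. A 2-fold or larger interaction was found in 652 genes (4.96%), 487 positive (3.7%) and 165 negative (1.25%), and in 36 of them the larger change was that of the HLBs.

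**Figure D1:**
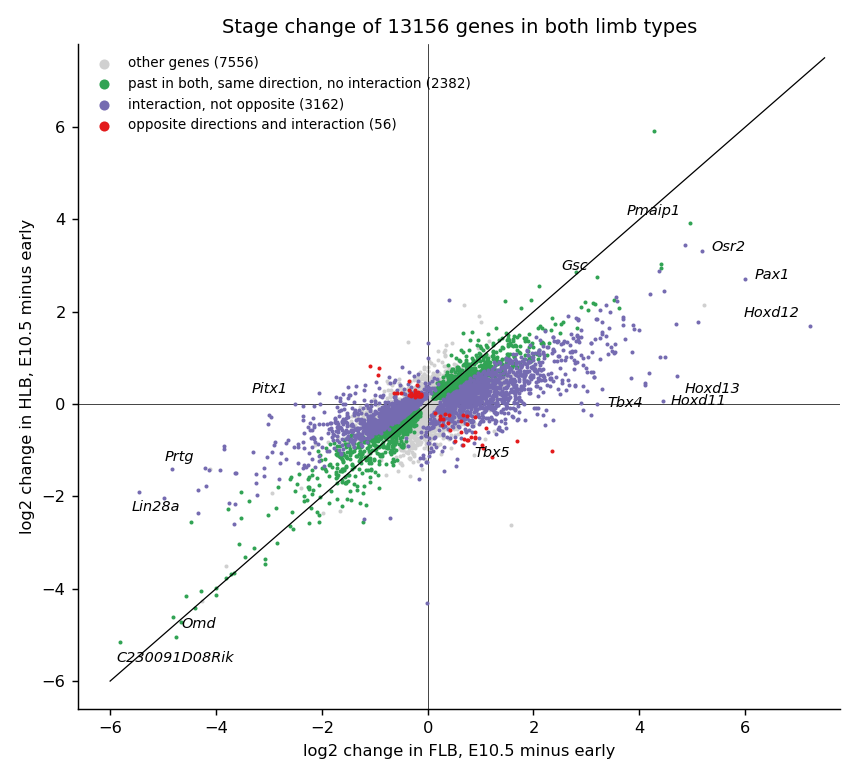
Each point is 1 of 13156 genes, with its HLB stage change (E10.5 minus early, log2) against its FLB stage change on the same scale; the line marks equal change. Of the genes with an interaction past an adjusted p of 0.05, 56 lie in the quadrants of opposite sign and passed in both limb types, and most named genes lie farther from 0 on the FLB axis than on the HLB axis.

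Shared and limb-specific calls were both frequent. In 3744 genes (28.5%) both limb types passed in the same direction, 1634 (12.4%) higher and 2110 (16%) lower, and 2382 of these 3744 had no interaction past the threshold. Without an interaction, 2957 genes passed in the FLBs but not in the HLBs and 394 in the HLBs but not in the FLBs, and these are not shown to differ between limb types. Among the 1639 genes that changed 2-fold or more in the FLBs (12.5% of those tested, 992 or 7.54% higher and 647 or 4.92% lower), 92.8% had the same direction in the HLBs, 1017 passed there as well, 7 passed in the opposite direction and 956 had an interaction. The median ratio of the HLB change to the FLB change over these 1639 genes was 0.449. Among the 518 genes that changed 2-fold or more in the HLBs (3.94%, with 242 or 1.84% higher and 276 or 2.1% lower), 98.1% had the same direction in the FLBs, 467 passed, and the median ratio of the FLB to the HLB change was 1.27. Each set was chosen on the limb type in the denominator, so these ratios are a description. The libraries of both stages did not overlap in 9096 of 13156 genes (69.1%) in the FLBs, in 7398 (56.2%) in the HLBs and in 5841 (44.4%) in either limb type, which is the background for statements on overlap below.

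The early HLBs lay between the FLB stages. Over the 1639 genes a score was set to 0 at the mean of the early FLBs and to 1 at that of the E10.5 FLBs. The early HLBs scored 0.400, 0.234 and 0.270 on it and the E10.5 HLBs 0.766 and 0.783. All 5 HLB libraries thus fell inside the FLB interval, and 1307 of the 1639 genes had an early HLB mean between the means of the FLB stages. Scored instead over the 518 HLB genes, with 0 at the early HLBs and 1 at the E10.5 HLBs, the early FLBs had −0.180 ± 0.022 (SD, n = 3) and the E10.5 FLBs a mean of 1.13. With genes of 4-fold change the early FLBs scored −0.0468. These scores describe the libraries, since the genes were chosen on the same values.

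**Figure D2:**
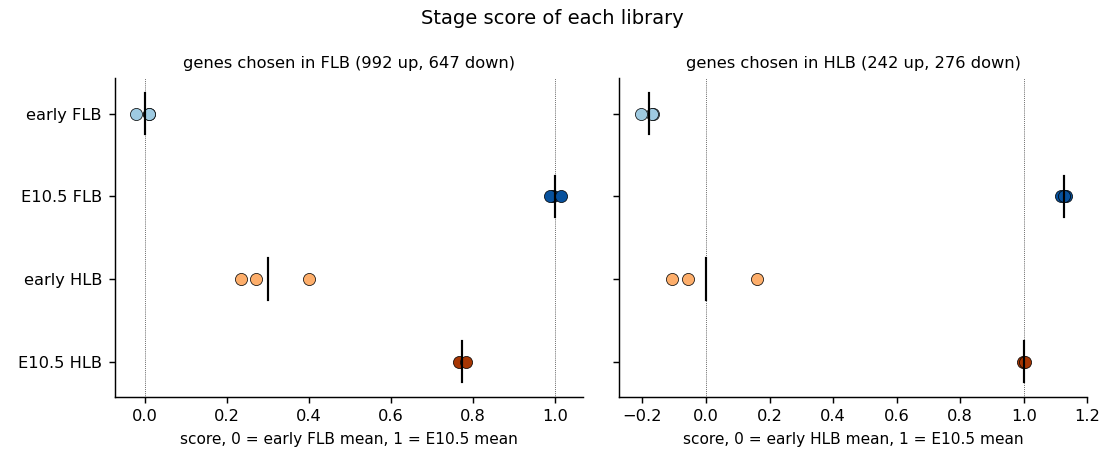
Score of each library (points) on the FLB stage axis, over 992 genes higher and 647 lower at E10.5, and on the HLB stage axis, over 242 and 276 genes. A score of 0 is the mean of the early group that chose the genes and 1 that of its E10.5 group; on the FLB axis all 5 HLB libraries lie between 0 and 1.

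Among the shared changes, the genes that rose most in both limb types included factors of connective tissue and early patterning. Osr2, a zinc finger factor of joint and connective tissue precursors, had 0.446, 0.58 and 0.1 CPM in the early FLBs and 30.5, 29.7 and 31.4 CPM at E10.5. Its HLB values were 1.48, 0.851 and 0.835 CPM early and 13.5 and 15.9 CPM at E10.5. It rose by 5.19 ± 0.21 in the FLBs (adjusted p = 3.5e-13) and by 3.31 ± 0.24 in the HLBs (adjusted p = 1.3e-08), with an interaction of 1.88 (adjusted p = 0.00036). Scx, the tendon progenitor factor, likewise rose in both, by 4.40 ± 0.40 and 2.94 ± 0.45. Its early HLB libraries were 5.54, 1.15 and 1.83 CPM, against 22.6 and 20.3 CPM at E10.5, and in the FLBs it went from 1.34–1.60 CPM to 37.9–44.5 CPM. The interaction of Scx, 1.46 (95% interval 0.09 to 2.83, adjusted p = 0.11), did not pass. Of 15 tendon and connective tissue genes tested, 8 rose and 3 fell in the FLBs, 6 rose and 2 fell in the HLBs, and 2 interactions were positive. Over all genes tested 28.6% rose and 35.2% fell in the FLBs, 14.6% rose and 18.2% fell in the HLBs, and 24.5% had an interaction. Pmaip1, which encodes the BH3-only protein NOXA, and Pcdh10, a protocadherin, rose by 4.95 and 4.41 in the FLBs and by 3.93 and 3.04 in the HLBs, and neither interaction passed. Fibin, a secreted factor named for fin bud initiation, rose by 4.37 and 2.89, with an interaction of 1.48 that passed in 5 of 11 leave-one-out fits. Gm9846 also met the rule, but its libraries spread widely (0.921 to 6.70 CPM for the early HLBs, and 125 and 413 CPM for the older ones).

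In a pair of genes the rise was close in size in both limb types. Mab21l2, a nuclear protein needed in eye development, had 25.3, 23.7 and 32.3 CPM in the early FLBs and 199, 186 and 189 CPM at E10.5. Its HLB values were 26, 12.9 and 15.1 CPM early and 123 and 135 CPM at E10.5. The changes were 2.80 ± 0.24 and 2.87 ± 0.27, and the interaction of −0.06 had a 95% interval from −0.92 to 0.79. For Gsc, a homeobox gene of limb and craniofacial mesenchyme, the changes were 3.20 ± 0.24 and 2.74 ± 0.27 and the interval of the interaction ran from −0.30 to 1.22. Mab21l2 shares 1097 exon bases with Lrba, so its reads may in part be those of the other gene.

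The genes that fell most in both limb types included several noncoding transcripts. C230091D08Rik had 28.5, 26.9 and 26.9 CPM in the early FLBs and was listed at 0 in the 3 E10.5 FLBs. Its HLB values were 19.3, 21.9 and 19.4 CPM early and 0.175 and 0 CPM at E10.5. It shares 1803 exon bases with Ube3a on the other strand, as 9530082P21Rik, which also fell in both, shares 1071 with Flywch1 on the other strand. Omd, a small leucine-rich proteoglycan, had 15.6 to 18.6 CPM in the early FLBs and in the early HLBs 12.7 to 15.1 CPM, but 0 to 0.175 CPM in the 5 E10.5 libraries, which is under the value of 3 reads. Its fitted changes of −4.82 and −4.62 depend on the added 0.5, and the interaction of −0.20 (95% interval −0.80 to 0.40) did not pass. Peg3as, the antisense transcript of the imprinted gene Peg3, fell from 18.8–29.5 CPM to 0.166–0.820 CPM in the FLBs and from 18.8–28.9 to 0.701–0.853 CPM in the HLBs. Col14a1, a fibril-associated collagen, fell by 3.08 and 3.35, and Doc2a, a calcium sensor, by 3.57 and 3.04. Doc2a shares 1103 of its 2803 exon bases with Ino80e on the other strand. How the counting treated strand is not given in the sources used here. Reads of these overlapping pairs therefore cannot be told apart, and their part in the falls was not tested. 6530402F18Rik, which overlaps Ntng2 on the same strand, also met the rule. Hand1, a factor of the lateral plate, had 28.1, 25.2 and 50.7 CPM in the early FLBs and 5.02, 21.7 and 14.0 CPM in the early HLBs. The 5 E10.5 libraries had 0.634 to 1.71 CPM. Its HLB call was lost without replicate 1 or without replicate 3 of the E10.5 HLBs (highest adjusted p 0.068).

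Genes of the posterior Hoxd cluster had the 3 largest positive interactions among genes with a group mean of at least 16 CPM that passed in every leave-one-out fit. Hoxd12 had 0.198, 0.0967 and 0.0502 CPM in the early FLBs and 95.2, 85.3 and 92.2 CPM in the E10.5 FLBs. Among the HLBs the early libraries had 20.2, 13.3 and 12.7 CPM and the E10.5 libraries 46.1 and 54.1 CPM. The early FLBs were thus at the value of a few reads whereas the early HLBs already expressed the gene, and E10.5 FLBs lay above E10.5 HLBs without overlap. The fitted FLB change was 7.22 ± 0.15, the HLB change 1.70 ± 0.17 and the interaction 5.53 ± 0.22 (adjusted p = 2.3e-11). Hoxd11 had 2.48, 2.51 and 1.21 CPM in the early FLBs and 59.3, 56.1 and 47.2 CPM at E10.5, a rise of 4.46 ± 0.19 (adjusted p = 2.4e-09). HLB libraries had 34.5, 30.2 and 36.0 CPM early and 35.0 and 35.2 CPM at E10.5, so the E10.5 values lay inside the early range (change 0.07, 95% interval −0.40 to 0.54). Hoxd13, the last gene of the cluster and a regulator of digit formation, had 6.09, 6.38 and 3.72 CPM in the early FLBs and 152, 145 and 158 CPM at E10.5. Its HLB values were 44.0, 53.5 and 45.2 CPM early and 73.9 and 70.5 CPM at E10.5. The interaction of Hoxd13 was 4.12 ± 0.25 (adjusted p = 4.5e-06) and that of Hoxd11 4.39 ± 0.29 (adjusted p = 2.7e-06), and both held in 11 of 11 leave-one-out fits. The HLB call of Hoxd13 (0.60 ± 0.18, adjusted p = 0.031) was lost without either E10.5 HLB library and without replicate 1 or replicate 3 of the early HLBs (highest adjusted p 0.14). The genes lie next to each other at chr2:74668225-74671603 (Hoxd13), chr2:74675013-74677705 (Hoxd12) and chr2:74679558-74687016 (Hoxd11).

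Hoxd10 and Evx2 of the Hoxd list also rose in the FLBs, by 0.82 (adjusted p = 0.021) and 1.71 (adjusted p = 0.00017). The call of Hoxd10 held in 9 of 11 leave-one-out fits (highest adjusted p 0.057). That of Evx2 held in the 9 fits that tested it. Without replicate 1 or replicate 3 of the E10.5 FLBs Evx2 missed the filter of 1 CPM in at least 2 libraries. Their HLB changes of −0.11 and −0.32 did not pass. The 5 other genes of the list fell in the FLBs. Hoxd9 fell by 1.32 ± 0.13 in the FLBs, Hoxd8 by 1.54 ± 0.09 and Hoxd1 by 3.76 ± 0.25. In the HLBs Hoxd8 fell by 0.75 and Hoxd1 by 2.13, and the change of Hoxd9 was −0.22 (adjusted p = 0.29). The interactions of Hoxd9, Hoxd8 and Hoxd1 were negative, −1.10 (adjusted p = 0.0032), −0.79 (adjusted p = 0.00053) and −1.62 (adjusted p = 0.004). Hoxd3 and Hoxd4, whose gene spans overlap, fell by 1.44 and 0.93 in the FLBs and by 2.08 and 1.24 in the HLBs. Their interactions did not pass and had the other sign, 0.64 (95% interval 0.05 to 1.23) and 0.31 (95% interval −0.54 to 1.16), and the HLB call of Hoxd4 was lost without replicate 1 of the E10.5 HLBs (adjusted p = 0.071). Of the 10 genes of the Hoxd list tested, 5 rose and 5 fell in the FLBs, 2 rose and 4 fell in the HLBs, and the interaction was positive in 4 and negative in 3. Among all genes tested 9.9% had a positive and 14.6% a negative interaction.

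The posterior Hoxa genes gave a similar count, with 3 of 4 higher in the FLBs at E10.5, 1 of 4 in the HLBs, and 3 positive interactions. For all genes tested these shares were 28.6%, 14.6% and 9.9%. Hoxa13, which acts with Hoxd13 in the hand plate, had 0.0495, 0.145 and 0.0502 CPM in the early FLBs and 16.1, 13 and 14.8 CPM at E10.5. It had 3.11, 3.51 and 2.77 CPM in the early HLBs and 13.5 and 9.90 CPM at E10.5, and its interaction was 2.96 ± 0.27 (adjusted p = 5.5e-07). The early FLBs again lay at or under the value of 3 reads. Hoxa10 had 21.7, 27.6 and 14.3 CPM in the early FLBs and 175, 189 and 169.9 CPM at E10.5. Its HLB values were 157, 109 and 130.4 CPM early and 220.0 and 200.4 CPM at E10.5, a change of 0.69 that did not pass (adjusted p = 0.089), and the interaction was 2.40 ± 0.35 (adjusted p = 0.0029). The early HLBs were thus near the level that the FLBs reached at E10.5. The interaction of Hoxa11, 1.62 ± 0.43 (adjusted p = 0.032), held in 4 of 11 leave-one-out fits. Hoxa11as, on the opposite strand, shares 800 exon bases with Hoxa11, and its interaction was 3.71. How the counting treated strand is not given in the sources used here, so reads of the pair cannot be told apart.

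**Figure D3:**
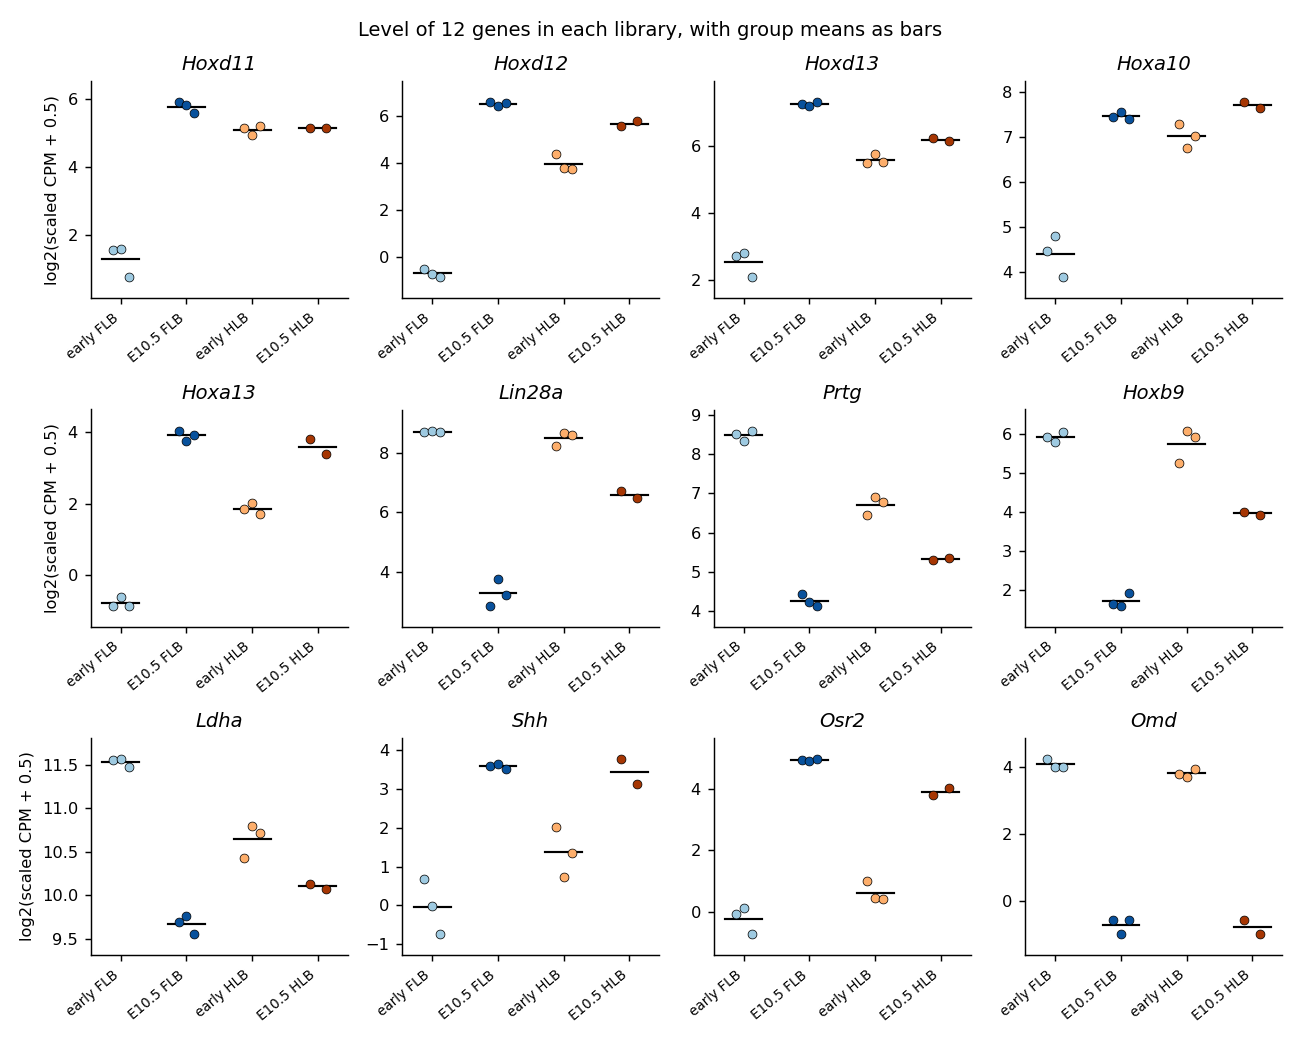
Level of 12 genes in each library, as log2 of scaled CPM plus 0.5, with points for libraries and bars for group means. Hoxd11, Hoxd12, Hoxd13, Hoxa10 and Hoxa13 start lower in the early FLBs than in the early HLBs without overlap, Lin28a, Prtg, Hoxb9 and Ldha end lower in the E10.5 FLBs than in the E10.5 HLBs, and Omd follows the same course in both.

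Hoxb genes fell in both limb types, more so in the FLBs. All 9 tested members passed downward in the FLBs and in the HLBs, and 6 interactions were negative, of which 4 held in all 11 leave-one-out fits. Such calls made up 35.2%, 18.2% and 14.6% of all genes tested. The median change of the list was −2.53 in the FLBs and −1.40 in the HLBs, where the medians over all genes tested were −0.04 and −0.02. Hoxb9 had 60.2, 54.9 and 65.7 CPM in the early FLBs and 2.62, 2.54 and 3.32 CPM at E10.5. It had 37.4, 67.4 and 60.2 CPM in the early HLBs and 15.6 and 14.7 CPM at E10.5, with an interaction of −2.41 ± 0.28 (adjusted p = 0.00017). The early groups overlapped and the E10.5 groups did not. Hoxb1 and Hoxb6 had interactions of −3.43 and −2.15, with much higher early levels in the FLBs (15.9 to 21.4 CPM of Hoxb1, against 0.430 to 1.10 CPM in the early HLBs). At E10.5 Hoxb1 lay under the value of 3 reads in all 5 libraries. Cdx1, an activator of Hox genes of the trunk, fell from 43.0–47.7 to 0.166–1.74 CPM in the FLBs and from 7.17–8.91 to 1.40–1.88 CPM in the HLBs (interaction −2.95 ± 0.59, adjusted p = 0.0071).

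Markers of body wall and coelomic lining moved with these genes. The summed level of 9 such markers went from 87.0–132 to 11.7–15.0 CPM in the FLBs and from 31.2–72.1 to 15.8–19.8 CPM in the HLBs, with all 7 tested members lower in the FLBs, 3 lower in the HLBs and 4 negative interactions. Those calls had shares of 35.2%, 18.2% and 14.6% over all genes tested. Gata4, a factor of flank and heart mesoderm, had 14.2, 19.3 and 33.8 CPM in the early FLBs, 2.06 to 2.66 CPM in the E10.5 FLBs, and under 0.6 CPM in each HLB library. Upk3b, a mesothelial protein, fell from 14.1–17.8 to 0.498–0.656 CPM in the FLBs, with an interaction of −2.87 ± 0.38 (adjusted p = 6.3e-05). No marker of the list was at 0 in all libraries. The part of flank tissue in the Hoxb, Hand1 and Pitx1 results was not tested, and fewer cells of a type cannot be told apart from less RNA per cell in these whole tissues.

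Heterochronic genes, a list of Lin28a, Lin28b, let-7 targets and others such as Dnmt3b, formed another group with larger falls in the FLBs. Of 11 tested, 10 fell and 1 rose in the FLBs, 6 fell and 1 rose in the HLBs, and 9 interactions were negative, 7 of them in all leave-one-out fits. Beside these counts, 35.2% of all genes tested fell in the FLBs, 18.2% fell in the HLBs and 14.6% had a negative interaction. Lin28a had 417, 434 and 414 CPM in the early FLBs and 6.72, 12.8 and 8.80 CPM in the E10.5 FLBs. The HLBs had 300.3, 408 and 389.6 CPM early and 104 and 88.1 CPM at E10.5. The groups of both stages did not overlap between limb types, and the gap was widest at E10.5. Lin28a fell by 5.45 ± 0.22 in the FLBs (adjusted p = 2.6e-07) and by 1.91 ± 0.25 in the HLBs (adjusted p = 0.00099), with an interaction of −3.54 ± 0.34 (adjusted p = 0.00038). Its homologue Lin28b had 299 to 323 CPM in the early FLBs and 272 to 314 CPM in the early HLBs. At E10.5 it had 62.3, 67.4 and 55.0 CPM in the FLBs but 205 and 183 CPM in the HLBs. The interaction of Lin28b was −1.71 ± 0.11 (adjusted p = 1.7e-07), and that of Trim71, a ubiquitin ligase and let-7 target, −1.07 ± 0.14 (adjusted p = 4.9e-05). Hmga2, a chromatin protein and let-7 target, was the member that rose, by 0.18 in the FLBs and 0.30 in the HLBs, and its interaction of −0.11 (95% interval −0.24 to 0.01) did not pass.

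Other early genes fell in the same way. Prtg, a receptor of the early mesoderm and neural tube, had 364, 320.5 and 389 CPM in the early FLBs and 21.0, 18.4 and 17.1 CPM at E10.5. It had 87.5, 119 and 109 CPM in the early HLBs and 38.7 and 40.4 CPM at E10.5, with an interaction of −2.83 ± 0.17 (adjusted p = 1.5e-06). Nr6a1, an orphan nuclear receptor of the growing trunk, had an interaction of −2.49 ± 0.22. Its level fell from at least 141 CPM in each early library to 5.15–8.20 CPM in the FLBs and from 36.1–49.6 to 11.6–12.1 CPM in the HLBs. Both genes started above the HLBs and ended below them. Wfikkn1, a secreted antagonist of GDF8 and GDF11, and Plekha2, an adaptor protein, had interactions of −2.93 and −2.25. Sall4, a zinc finger factor needed at the onset of limb outgrowth, fell by 1.80 and 0.65 (interaction −1.14 ± 0.14, adjusted p = 3.1e-05).

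Genes of glycolysis fell more in the FLBs. Of 18 tested, 15 fell and 2 rose in the FLBs, 9 fell and 2 rose in the HLBs, and 13 interactions were negative, all 13 of them in each leave-one-out fit and under each scaling. As background, 35.2% of all genes tested fell in the FLBs, 18.2% fell in the HLBs and 14.6% had a negative interaction. The median change was −1.39 in the FLBs and −0.33 in the HLBs, and the summed level went from 14572–15550 to 5479–5881 CPM in the FLBs and from 8179–9828 to 7042–7198 CPM in the HLBs. The E10.5 FLBs were the lowest group and the early FLBs the highest. Ldha, lactate dehydrogenase, had 3004, 3028 and 2846 CPM in the early FLBs and 827, 868 and 752 CPM at E10.5. It had 1379.6, 1776 and 1678 CPM in the early HLBs and 1125 and 1078 CPM at E10.5, an interaction of −1.32 ± 0.13 (adjusted p = 0.00019). For Tpi1, triosephosphate isomerase, the FLB change was −1.21 ± 0.05, whereas the HLB change was −0.08 with a 95% interval from −0.21 to 0.04. Slc16a3, the lactate exporter, fell by 2.44 and 0.87, and its HLB call was lost without replicate 1 of the E10.5 HLBs (adjusted p = 0.05003).

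Genes of DNA replication and mitosis had more negative than positive interactions on scaled CPM. Of 22 S phase genes 19 fell in the FLBs and 8 in the HLBs, with 14 negative interactions, and of 22 genes of G2 and M phase 15 fell and 3 rose in the FLBs, 2 fell and 5 rose in the HLBs, with 12 negative and 1 positive interaction. Over all genes tested 35.2% fell in the FLBs, 18.2% fell in the HLBs and 14.6% had a negative interaction. The counts of both lists depend on the scaling. With CPM as deposited 5 S phase interactions and 4 of G2 and M phase were negative and 1 of each was positive. Cdkn1c, an imprinted inhibitor of the cell cycle, rose by 1.78 ± 0.06 and 0.85 ± 0.07 (interaction 0.93, adjusted p = 1.8e-06).

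Cartilage and joint genes rose more in the FLBs. Of 17 tested, 14 rose in the FLBs and 9 in the HLBs, and the interaction was positive in 12 and negative in 1, with 10 of these 13 calls in all leave-one-out fits. Among all genes tested 28.6% rose in the FLBs, 14.6% rose in the HLBs and 9.9% had a positive interaction. The list had median changes of 1.48 and 0.40. Col9a1, a collagen of early cartilage, had 11.7, 13.3 and 13.7 CPM in the early FLBs and 99.2, 101 and 105 CPM at E10.5. It had 20.8, 26.9 and 25 CPM in the early HLBs and 42.0 and 45.6 CPM at E10.5, so the HLBs started higher and ended lower (interaction 2.08 ± 0.13, adjusted p = 9.5e-09). Col9a2 and Col9a3, the partner chains, had interactions of 2.33 and 1.93. Runx2, the osteoblast factor, had 15.9 to 21.8 CPM in the E10.5 FLBs and 1.75 and 2.22 CPM in the E10.5 HLBs (interaction 1.35 ± 0.33, adjusted p = 0.0055). Sox9, which starts the cartilage program, rose in both, by 2.44 ± 0.21 and 1.37 ± 0.23, but its interaction (1.08, adjusted p = 0.039) held in only 2 of 11 leave-one-out fits. Gdf5, the joint ligand, rose by 3.17 and 2.16 and its interaction of 1.01 did not pass (adjusted p = 0.056).

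Markers of the somite and axial mesoderm moved in both directions. Their summed level went from 43.5–48.3 to 134–160 CPM in the FLBs and from 31.5–44.8 to 62.7–66.2 CPM in the HLBs, with 4 of 7 higher and 2 lower in the FLBs, 2 higher and 1 lower in the HLBs, and 3 positive and 1 negative interaction, 2 of these 4 in all leave-one-out fits. Of all genes tested 63.9% passed in the FLBs, 32.7% passed in the HLBs and 24.5% had an interaction. Little can be read from counts in a list of 7. Meox1 and Uncx, somite factors, fell by 0.87 and 1.53 in the FLBs. Pax1, a factor of the sclerotome and of the shoulder girdle, had 0 to 0.347 CPM in the early FLBs and 44.1, 34.9 and 48.7 CPM at E10.5. HLB libraries had 0.0501 to 0.365 CPM early and 4.91 and 3.75 CPM at E10.5, and its interaction was 3.29 ± 0.35 (adjusted p = 3.9e-06). Meox2, a factor of limb muscle precursors, had an interaction of 1.85 (adjusted p = 0.005). No marker of the list was at 0 in all libraries, and the part of somite-derived tissue in the rise of cartilage genes was not tested.

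**Figure D4:**
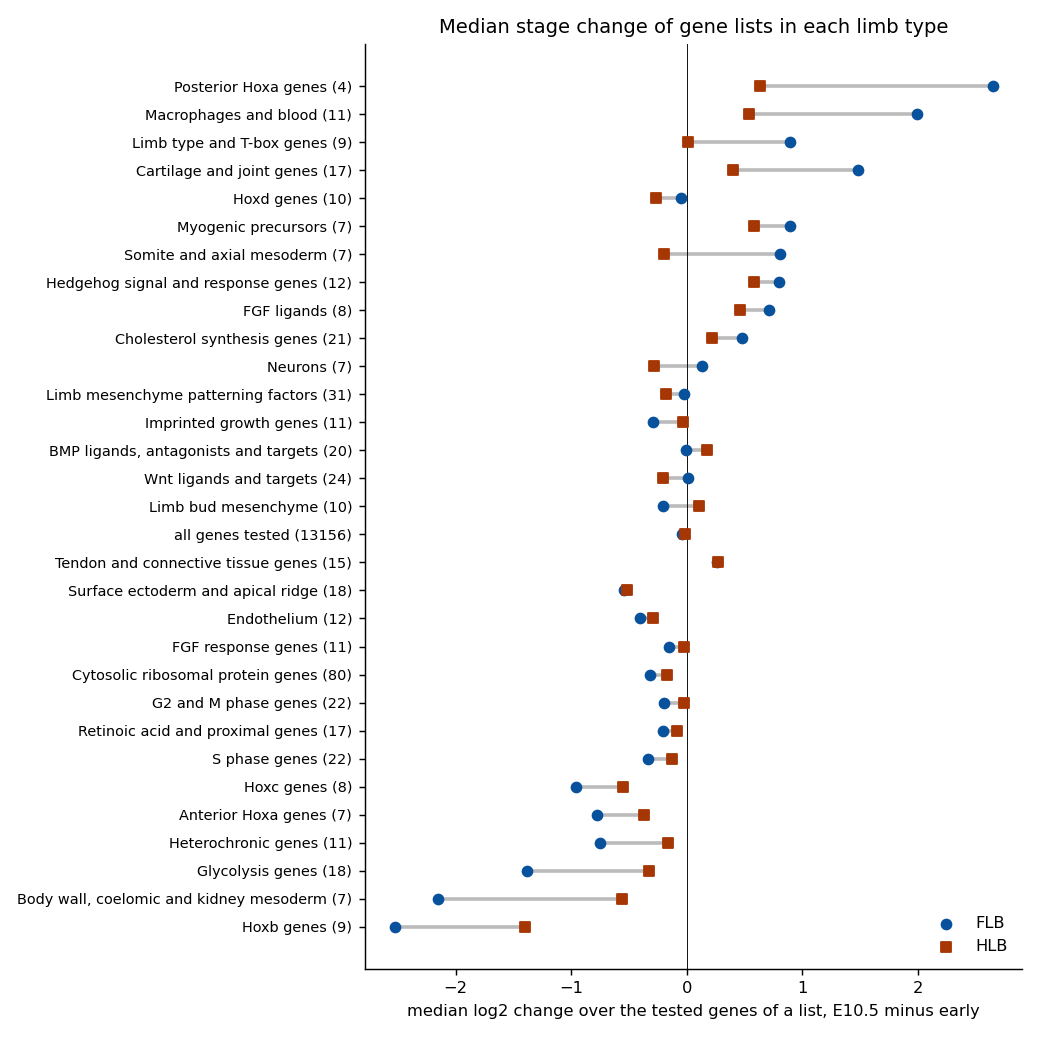
Median stage change (log2, E10.5 minus early) over the tested genes of each list shown, with circles for FLBs and squares for HLBs, sorted by the median interaction. The lists of endoderm, neural crest and glia, erythroid cells and replication-dependent histone genes are not shown. Posterior Hoxa and cartilage genes lie at the positive end and Hoxb and glycolysis genes at the negative end, and in most lists shown the circle lies farther from 0 than the square.

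Hedgehog genes rose in both limb types. SHH from the posterior margin induces Gli1 and the receptor gene Ptch1 in the cells that receive it. Of 12 tested, 8 rose and 1 fell in the FLBs, 7 rose and 1 fell in the HLBs, and 4 interactions were positive, 2 of them in all leave-one-out fits. By comparison 28.6% of all genes tested rose in the FLBs, 14.6% rose in the HLBs and 9.9% had a positive interaction. Shh had 1.09, 0.483 and 0.1 CPM in the early FLBs and 11.5, 11.9 and 11 CPM at E10.5. It had 3.58, 1.15 and 2.04 CPM in the early HLBs and 13.1 and 8.19 CPM at E10.5. The E10.5 groups overlapped, and the interaction of 1.53 (95% interval 0.28 to 2.78, adjusted p = 0.074) did not pass. Shh shares 446 of its 2847 exon bases with 9530036O11Rik on the other strand, so its reads may in part be those of the other gene. Gli1 had 4.51, 3.29 and 3.36 CPM in the early FLBs and 46.1, 48.4 and 48.3 CPM at E10.5. The HLBs had 38.1, 16.1 and 18 CPM early and 48.5 and 48.0 CPM at E10.5. Both limb types thus had nearly equal E10.5 levels, from unequal early ones, and the interaction was 2.43 ± 0.44 (adjusted p = 0.0056). The HLB call of Gli1 (adjusted p = 0.034) held in 5 of 11 leave-one-out fits. The interaction of Ptch1, 0.44 (adjusted p = 0.027), held in 5 of 11.

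Genes of the other signalling systems moved in both directions. Of 8 FGF ligands tested, 5 rose and 2 fell in the FLBs and 3 rose and 2 fell in the HLBs, with 1 interaction in each direction, a share close to the 24.5% over all genes tested. Fgf10, the mesenchymal ligand that sustains the ridge, had 68.1, 69.1 and 62.5 CPM in the early FLBs and 30.3, 31.9 and 30.2 CPM at E10.5. In the HLBs it had 45.1, 48.8 and 47.8 CPM early and 39.1 and 38.6 CPM at E10.5, and the interaction was −0.82 ± 0.10 (adjusted p = 1.1e-05). The HLBs lay between the FLB stages in every library. Fgf8, the ridge ligand, fell by 0.48 in the FLBs, and in the HLBs its change of −0.38 held in 5 of 11 leave-one-out fits. The interaction of Fgf8 was −0.10 (95% interval −0.51 to 0.30). The summed level of 18 markers of surface ectoderm and ridge went from 603–749 to 411–431 CPM in the FLBs and from 580–664 to 422–447 CPM in the HLBs, and their part in the Fgf8 values was not tested. Wnt5a, which guides distal growth, rose by 0.98 ± 0.05 in the FLBs (interaction 0.82 ± 0.07, adjusted p = 6.7e-07), from 83.2–86.5 to 163–172 CPM. Its HLB values were 107 to 113 CPM early and 116 and 128 CPM at E10.5, a change of 0.16 that was lost without any of 3 HLB libraries. Of 24 Wnt genes tested, 8 interactions were positive and 5 negative. Of 20 BMP genes 4 interactions were negative, and of 17 genes of retinoic acid and the proximal bud 3 were positive and 4 negative. Over all genes tested 9.9% were positive and 14.6% negative, and little can be read from the BMP and retinoic acid counts. The count of 8 positive Wnt interactions was the same under each scaling. In all leave-one-out fits 8 of the 13 Wnt calls held. Cyp26b1, which breaks down retinoic acid in the distal bud, rose by 2.04 and 1.44. Aldh1a2, which makes it, fell by 2.58 and 1.58, and its interaction did not pass (95% interval −1.77 to −0.23, adjusted p = 0.063).

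Of 31 patterning factors of the mesenchyme, 12 had positive and 4 negative interactions, and of 9 limb type and T-box genes 6 had positive and 1 a negative interaction, beside 9.9% positive and 14.6% negative over all genes tested. In all leave-one-out fits 11 of the former 16 and 6 of the latter 7 calls were kept. Shox2, a homeobox gene of the proximal limb skeleton, had 9.21, 8.56 and 4.82 CPM in the early FLBs and 87.9, 94.8 and 87.9 CPM at E10.5. It had 45.3, 22.0 and 26.5 CPM in the early HLBs and 63.4 and 69.1 CPM at E10.5. The interaction was 2.41 ± 0.46 (adjusted p = 0.0087), and the HLB call held in 3 of 11 leave-one-out fits. Tbx15, a T-box factor of the developing skeleton, had an interaction of 2.24 that was lost without replicate 1 of the E10.5 HLBs (adjusted p = 0.056). Among genes of no list, Slitrk6, a transmembrane protein, had 4.06 to 4.80 CPM in the early FLBs and 40.5 to 48.2 CPM at E10.5, against 31.1 to 56.8 CPM in the early HLBs and 42.9 and 43.5 CPM at E10.5. The HLB change of Slitrk6 was 0.00 with a 95% interval from −0.42 to 0.43, and the interaction was 3.19 ± 0.26 (adjusted p = 1.5e-05). The gap junction genes Gjb2 and Gja5 had interactions of 3.31 and 2.54, and Mab21l1, which shares 981 exon bases with Nbea, one of 3.38. In each of these 4 genes every early FLB library lay below every library of the other 3 groups.

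Few genes changed more in the HLBs. Of the 36 with a 2-fold interaction, 12 passed in all leave-one-out fits and 4 had a group mean of 16 CPM or more, so the genes below were named after their values were seen. Dtx4, a regulator of Notch signalling, had 12.8, 17.8 and 17.0 CPM in the early HLBs and 7.36 and 7.51 CPM at E10.5. In the FLBs it had 8.97, 6.67 and 8.84 CPM early and 8.69, 8.72 and 7.81 CPM at E10.5, with a change of 0.05 (95% interval −0.25 to 0.35) and an interaction of 1.08 ± 0.21 (adjusted p = 0.0013). Adamts5, a protease of the matrix, fell by 1.02 ± 0.20 in the HLBs (interaction 1.12, adjusted p = 0.0054), and its FLB change was 0.10. Hotair, a noncoding RNA of the Hoxc cluster, was listed at 0 in all 6 FLB libraries. It had 1.86, 0.901 and 1.41 CPM in the early HLBs and 4.91 and 3.41 CPM at E10.5, a rise of 1.31 ± 0.29 (adjusted p = 0.002). The interaction of Hotair (−1.31, adjusted p = 0.02) was lost without replicate 2 of the early HLBs and without replicate 1 of the E10.5 HLBs (highest adjusted p 0.11). E130114P18Rik had 0.338 to 1.15 CPM in the 6 FLB libraries and rose from 0.451–1.62 to 6.83 and 5.12 CPM in the HLBs (interaction −1.85 ± 0.42, adjusted p = 0.0038).

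Opposite changes were rare, with 56 genes (0.426%) that passed in both limb types with opposite signs and an interaction. In 30 of them the FLBs rose and the HLBs fell, and in 26 the reverse held. Itga4, the integrin subunit that binds fibronectin and VCAM1, had 29.8, 25.1 and 22.0 CPM in the early FLBs and 37.4, 37.7 and 34.7 CPM at E10.5. It had 17.0, 19.7 and 18.7 CPM in the early HLBs and 11.6 and 9.22 CPM at E10.5. Neither limb type overlapped between stages, and the changes were 0.52 ± 0.11 (adjusted p = 0.00039) and −0.81 ± 0.12 (adjusted p = 5.8e-05). Itga4 shares 1124 of its 13978 exon bases with Cerkl, so its reads may in part be those of the other gene. Fat3, an atypical cadherin of planar cell polarity, had 10.7, 8.31 and 8.39 CPM in the early FLBs and 20.8, 18.4 and 20.8 CPM at E10.5. The HLBs had 17.4, 19.6 and 18.7 CPM early and 11 and 14.7 CPM at E10.5, and its HLB call was lost without replicate 1 of the E10.5 HLBs (adjusted p = 0.14). Dach1, a transcriptional corepressor, went from 61.1–64.4 to 39.7–44.7 CPM in the FLBs. In the HLBs it went from 43.4–48.2 to 53.1 and 56.8 CPM, a rise of 0.24 ± 0.07 that was lost without replicate 3 of either HLB group (highest adjusted p 0.14). The limb type gene Tbx5 is among the 56, but its HLB fall of 0.79 lies between 0.526–0.851 CPM early and 0.175 and 0.171 CPM at E10.5, under the value of 3 reads.

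**Figure D5:**
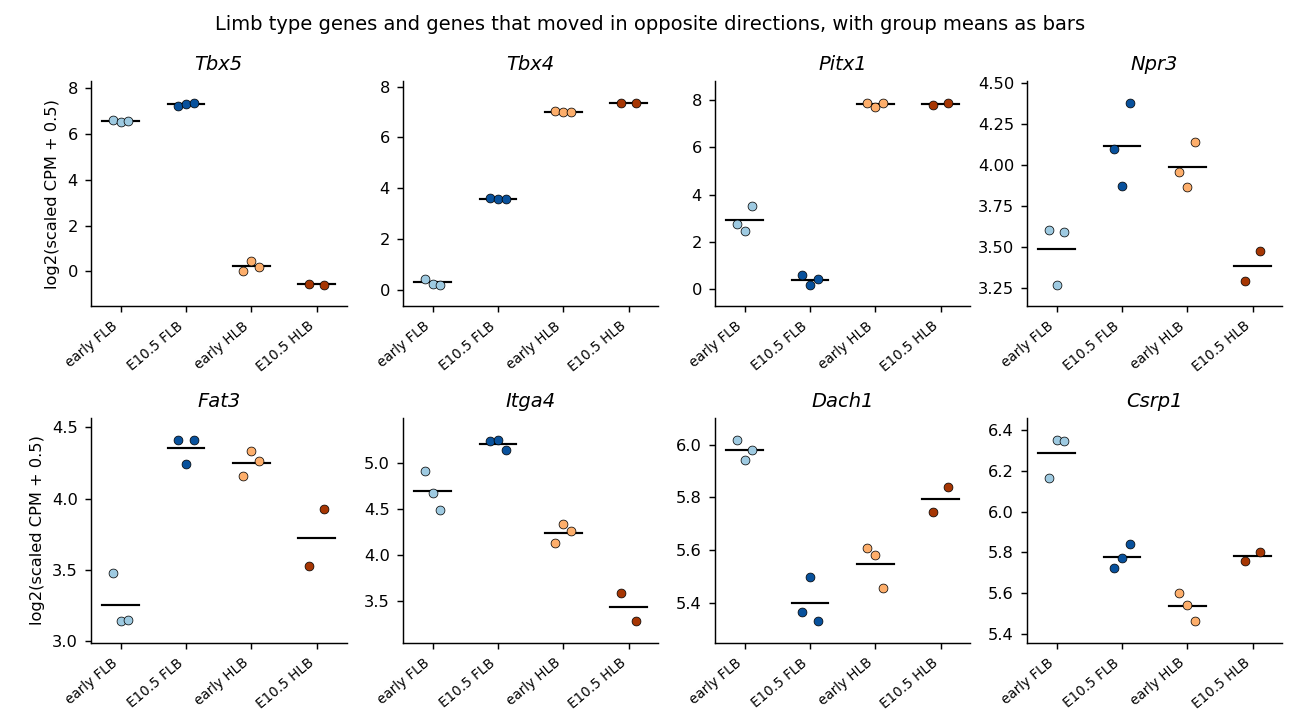
Level of 8 genes in each library, as log2 of scaled CPM plus 0.5, with points for libraries and bars for group means. Tbx5, Tbx4 and Pitx1 separate the limb types at both stages, while Npr3, Fat3 and Itga4 rise in the FLBs and fall in the HLBs and Dach1 and Csrp1 do the reverse.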

How the data were processed

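RNA-seq libraries of 4 groups of limb buds were analysed, with groups and replicate numbers from the labels. The sources do not state that replicates came from separate embryos, so p-values measure only the spread between these libraries, which may be technical. Per the methods, mRNA libraries were stranded, and single-end reads were aligned to mm10 (HISAT2 2.0.4). The authors deposited CPM per gene from Cuffdiff. The submitters' processing notes name Cufflinks 2.1.1, whereas the methods of the study give another version. FastQC 0.11.5 and edgeR 3.16.2 are also in the submitters' processing notes. Each deposited column of 23279 genes sums to 1000000, and values up to that of 3 reads were treated as the floor, which covers counting error only. Genes were placed on GRCm38 through RefSeq.

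CPM were scaled by an unweighted trimmed mean of log ratios (30% and 5% trimmed), kept where 1 CPM or more in at least 2 of 11 libraries, and tested as log2(CPM + 0.5) with limma 3.58.1 (trend, robust) in R 4.3.3, in 1 fit over 4 groups. Adjustment (Benjamini-Hochberg) covered all 13156 genes tested. Called genes had an adjusted p under 0.05. The planned count test was not run, because part of the low values did not come out as whole reads. In the early libraries 94.2% to 94.7% of low values were whole, and in the E10.5 libraries used 98.8% to 98.9%.

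Genes named are members of gene lists, or by rule: the 12 largest interactions in each direction that passed in every leave-one-out fit, the 8 largest shared and the 6 largest opposite changes in each direction, with a group mean of at least 16 CPM. Genes outside it are marked, and a few that it names are not reported here. The members and lists were chosen with earlier results of these data known. The test was also run on reads simulated with the same spread in every gene and group. Real genes and groups may differ in spread, so that run does not measure how the test performs on these data. Promoters came from RefSeq (GRCm38.p6). Tables were handled with pandas 2.3.3 and numpy 2.4.6 (Python 3.11.15) and plotted with matplotlib 3.10.9.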

Additional observations from a re-analysis of the deposited data

Results flagged for a closer look

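The stage changes of 11 named genes went in opposite directions in FLBs and HLBs, with each limb type past an adjusted p of 0.05 and the difference tested by the interaction (FLB change minus HLB change, log2, limma). In 5 genes the FLBs rose and the HLBs fell. These were Tbx5 (interaction 1.52, adjusted p = 5.5e-06), Npr3 (1.23, adjusted p = 0.00027), a clearance receptor of natriuretic peptides, Fat3 (1.62, adjusted p = 6.5e-06), Itga4 (1.32, adjusted p = 1.8e-05) and Mmrn1 (1.00, adjusted p = 0.00011), an endothelial and platelet protein. In the other 6 genes the FLBs fell and the HLBs rose. These were 2610109H07Rik (−1.57, adjusted p = 8.1e-05), Prrx2 (−0.66, adjusted p = 0.00026), a homeobox gene of limb mesenchyme, Csrp1 (−0.76, adjusted p = 3.1e-05), a LIM protein of the cytoskeleton, Dach1 (−0.83, adjusted p = 1.3e-05), Nid2 (−0.49, adjusted p = 0.00068), a basement membrane protein, and Errfi1 (−0.55, adjusted p = 0.0017), an inhibitor of EGF receptor signalling. All 11 interactions held in 11 of 11 fits that left out 1 library each. Itga4 shares 1124 exon bases with Cerkl and Nid2 shares 437 with Rtraf, so their reads may in part be those of the other gene.

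The HLB side was less firm. Of the 11, only Tbx5 and Itga4 kept their HLB call in every such fit, and Tbx5 lies at or under 0.851 CPM there. The call was lost without replicate 1 of the E10.5 HLBs for Npr3, Fat3 and Prrx2 (highest adjusted p 0.14), without replicate 3 of the E10.5 HLBs for 2610109H07Rik and Nid2 (highest adjusted p 0.14), and without replicate 3 of either HLB group for Csrp1 (highest adjusted p 0.095) and Dach1 (0.14). It was also lost without any of 3 libraries for Errfi1 (0.42) and of 4 for Mmrn1 (0.077).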

How the results depend on the processing

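At an adjusted p of 0.001 in place of 0.05 the counts were 635 for the interaction, 5405 for the FLB change, 1355 for the HLB change, 1281 shared and 5 opposite. Leaving out 1 library in turn gave 2200 to 3254 interactions, 7753 to 8505 FLB changes, 2992 to 4503 HLB changes, 2591 to 3984 shared changes and 31 to 63 opposite ones, the 31 without replicate 3 of the early HLBs. A fit that leaves 1 E10.5 HLB library assumes that it varies like the other groups. With CPM as deposited the interaction was positive in 2044 genes and negative in 831, against 1303 and 1915, because the median interaction moved from −0.03 to 0.10. The early FLBs scored −0.0468 on the HLB axis when genes of 4-fold change were used, where the report has −0.180. Of 430 named or listed genes, 3974 of 4246 values under the other settings and 4264 of 4720 with a library left out kept their direction and their side of the threshold, and none reversed. The replicate block gave 3266 interactions, 8350 FLB, 3818 HLB, 3335 shared and 54 opposite changes. Replicate numbers did not pair the samples: deviations of same-numbered libraries correlated at −0.0972 to 0.103, and 4 of 11 libraries correlated best with their own number. The planned edgeR test was not run. The depth of the E10.5 libraries limits genes under 0.541 CPM.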

Other observations

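Genes of cholesterol synthesis passed upward more than downward at E10.5. Of 21 tested, 16 rose and 0 fell in the FLBs, 6 rose and 0 fell in the HLBs, and 0 interactions passed on scaled CPM (limma; 2 had an unadjusted p under 0.05, both positive), against 2 positive ones with CPM as deposited. Across all genes tested 28.6% rose in the FLBs, 14.6% rose in the HLBs and 24.5% had an interaction. None of the 6 HLB calls held in all leave-one-out fits, the median interaction was 0.20, and the absence of calls does not show that the limb types changed alike. Their summed level went from 1439–1844 to 2126–2195 CPM in the FLBs and from 2082–2589 to 2770–2787 CPM in the HLBs. Of 80 cytosolic ribosomal protein genes 73 fell in the FLBs, 55 fell and 1 rose in the HLBs, and 32 interactions were negative, but with CPM as deposited 51 fell and 4 rose in the FLBs and 6 interactions were negative and 2 positive. On scaled CPM 35.2% of all genes tested fell in the FLBs, 18.2% fell in the HLBs and 14.6% had a negative interaction.

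Marker RNA of cells that enter the bud from outside was also measured. The summed level of 12 macrophage and blood markers went from 2.56–3.12 to 24.3–29.2 CPM in the FLBs and from 10.51–12.8 to 15.6–18.8 CPM in the HLBs, and 8 of 11 interactions were positive, beside 9.9% over all genes tested. In all leave-one-out fits 4 of the 8 interactions and 0 of the 2 HLB calls held. Csf1r, the receptor for the macrophage growth factor, had 0.151 to 0.347 CPM in the early FLBs and 6.06, 4.76 and 5.48 CPM at E10.5, with an interaction of 2.21 ± 0.30 (adjusted p = 5.1e-05). It shares 873 exon bases with Hmgxb3. Myod1, the muscle determination factor, was at 0 to 0.0495 CPM in the early FLBs and had 7.05, 7.14 and 11.5 CPM at E10.5. In the HLBs it had at most 0.512 CPM in any library, at or under the value of 3 reads, and its interaction was 3.63 ± 0.43 (adjusted p = 1.1e-05). Of 7 myogenic genes tested, 5 rose in the FLBs and 2 in the HLBs, and 3 interactions were positive. For all genes tested these shares were 28.6%, 14.6% and 9.9%.

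Ndufs5, a subunit of mitochondrial complex I named after its values were seen, had 8.03, 17.4 and 6.28 CPM in the early HLBs and under 0.02 CPM in the other 8 libraries, less than the value of 1 read. Values under 1 read are not whole counts, and whether reads shared with other loci were assigned differently between libraries was not tested.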
